A study of Drosophila melanogaster with 7 samples.

Results

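The genes described here make, store and move lipids and sterols: SREBP, ACC, FASN1, Fatp, Inos, Lsd-1, Lsd-2, bmm, Npc2a and Npc1a of Drosophila melanogaster. A cDNA feature was taken for a gene where the platform annotation gave it that single gene, and 9 of the 10 genes had 1 feature each, of 7556 genes and 10227 features tested in all. Lsd-2 had none and was not analysed here. The genes were chosen by their function with the log2 ratios of this same contrast in view, so their ratios and adjusted p-values are a description of where they lie in the fit over all features and are not an independent test.

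Total RNA of whole embryos homozygous for lola ORE76 was hybridised against RNA of control embryos on 7 spotted cDNA arrays, 1 independently collected pair of samples to an array. On a w1118 background, the mutant had a chromosome with lolaORE76 and sca-GAL4 over a chromosome with lolaORE76 and UAS-tau-eGFP. The control, also w1118, had sca-GAL4 over UAS-tau-eGFP without the lola allele. Both groups thus carried the driver and the fluorescent reporter by whose signal in the nervous system embryos were sorted by hand. The allele is a null that stops the protein early in the part common to the isoforms of Lola. Lola is a zinc-finger protein that binds DNA and acts in the growth and guidance of axons. The mother also contributes Lola to the embryo, and how much of it remained at this age was not measured here. Embryos were 10 to 12 hours old, and each sample held RNA of about 300 embryos. Both mutant recombinant chromosomes were built from the same lola chromosome, so loss of lola cannot be told apart from other loci on it. Mutant RNA was labelled with Cy5 for arrays 1, 3 and 6, and with Cy3 for the other 4, arrays 2, 4, 5 and 7. In RNA of whole embryos, fewer cells of a type and less RNA per cell cannot be told apart.

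SREBP is a membrane-bound transcription factor that is cut free by proteases and switches on genes of fatty acid synthesis. In flies it answers to phosphatidylethanolamine and not to sterols, which flies cannot make and must take from food or, in the embryo, from the egg. ACC and FASN1 build fatty acids, Fatp takes up and activates them, perilipins such as Lsd-1 coat the droplets in which they are stored as fat, and the lipase bmm releases them. Npc1a and Npc2a pass sterols out of late endosomes and lysosomes, and in flies this route supplies the sterol from which ecdysone is made, with Npc2b able to stand in for Npc2a.

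Between lola mutant and control embryos these genes went in both directions. All values are log2 ratios of mutant over control, the likely direction: the deposited table does not state it, and all 581 clones of the study's list of changed features that matched had the opposite sign as deposited. SREBP, Inos and Fatp were higher in the mutant, by 1.54-fold, 1.57-fold and 1.30-fold, and Npc2a and Lsd-1 were lower, by 1.81-fold and 1.36-fold. FASN1, ACC, bmm and Npc1a did not pass. Thus 3 of 9 features were called higher and 2 lower at an adjusted p under 0.05 (limma moderated test of the mean of 7 arrays, Benjamini-Hochberg over all features), beside 3.59% higher and 2.52% lower among all tested features, 6.11% in all. Counted by gene, 6.03% of all genes had a called feature. The ratio had the same sign on all 7 arrays for 3 of the 9, all higher, beside 9.7% of all features, 5.2% higher and 4.5% lower. As the genes were chosen with this contrast known, nothing is read from that comparison.

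**Figure D1:**
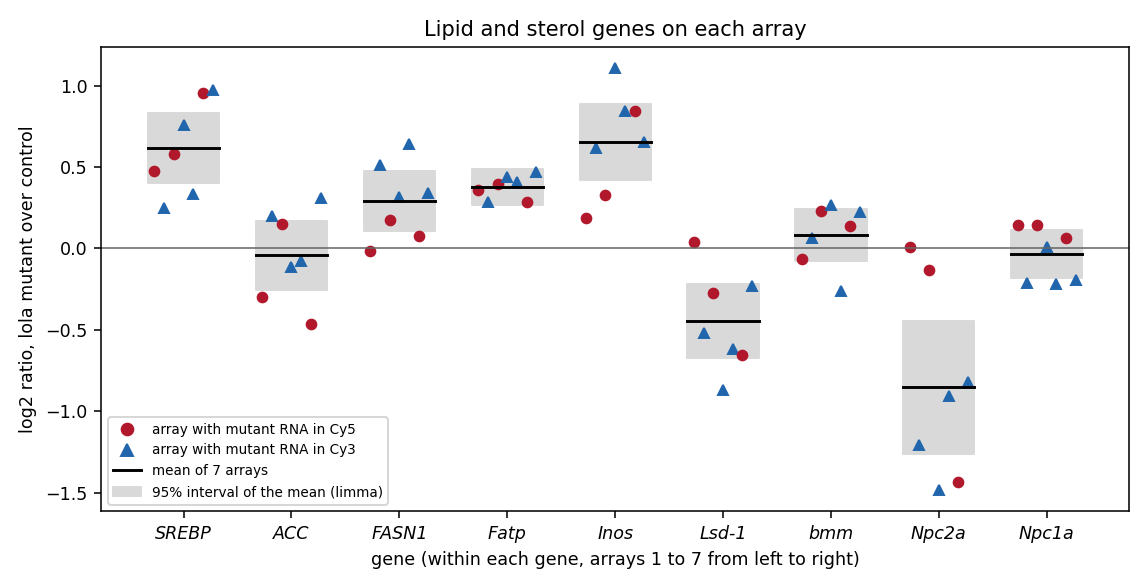
Log2 ratio of lola mutant over control (vertical axis) of the 9 measured genes, with arrays 1 to 7 from left to right within each gene, circles for mutant RNA in Cy5 and triangles for mutant RNA in Cy3, a bar for the mean and a grey band for its 95% interval in limma. SREBP, Fatp and Inos lie above 0 on every array, while Npc2a and Lsd-1 lie below 0 on all but array 1.

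SREBP, the regulator, had log2 ratios of 0.48, 0.25, 0.58, 0.76, 0.34, 0.95 and 0.98 on arrays 1 to 7. All were above 0, with the highest on arrays 6 and 7, which carried the mutant in different dyes. The mean was 0.62 ± 0.29 (SD, n = 7; 95% interval 0.40 to 0.83; adjusted p = 0.00606), and it exceeded 99.2% of the means of all tested features. The mean was 0.67 over the arrays with the mutant in Cy5 and 0.58 over those with it in Cy3. SREBP remained called when any single array was left out, with a mean from 0.56 to 0.68 and an adjusted p from 0.0102 to 0.0304.

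The fatty acid synthesis enzymes that SREBP acts on did not pass. ACC, acetyl-CoA carboxylase, makes the malonyl-CoA from which fatty acids are built. Its ratios were -0.30, 0.20, 0.15, -0.12, -0.08, -0.46 and 0.31 on arrays 1 to 7, on both sides of 0. The mean was -0.04 ± 0.28 (SD, n = 7; adjusted p = 0.868), and the 95% interval of -0.25 to 0.17 leaves room for a small change either way.

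FASN1, the fatty acid synthase, had ratios of -0.02, 0.51, 0.18, 0.32, 0.64, 0.07 and 0.34. It was above 0 on 6 of 7 arrays, with the highest values where the mutant carried Cy3. The mean of 0.29 ± 0.23 (SD, n = 7; 95% interval 0.11 to 0.48) did not pass (adjusted p = 0.0723, unadjusted p = 0.00558). It was 0.08 over the 3 arrays with the mutant in Cy5 and 0.45 over the 4 with it in Cy3. With a dye term in the limma fit the genotype mean was 0.27 and passed (adjusted p = 0.0213). It also passed without array 1, at 0.34 (adjusted p = 0.0385), and with array weights, at 0.42 (adjusted p = 0.00407). On the arrays with the mutant in Cy3 alone it passed too (adjusted p = 0.00632). The call for FASN1 thus turned on how the dye and the arrays were treated. Over the alternatives, its adjusted p ran from 0.00407 to 0.668. FASN1 lay above ACC on 7 of 7 arrays, by 0.33 ± 0.26 on average (SD), with a smallest difference of 0.024.

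Fatp, named Fatp1 in RefSeq, encodes a fatty acid transport protein of the acyl-CoA synthetase family. It had the most even ratios of the 9 genes, at 0.36, 0.29, 0.39, 0.44, 0.41, 0.28 and 0.47. No array stood apart and the dyes gave alike means, 0.35 with the mutant in Cy5 and 0.40 with it in Cy3. The mean of 0.38 ± 0.07 (SD, n = 7; 95% interval 0.27 to 0.49) had the lowest adjusted p of the group, 0.00237, although it was not the largest change. Fatp was called without any single array, with an adjusted p from 0.00419 to 0.0128. Its relatives Fatp2, at 0.05 ± 0.22, and Fatp3, at -0.03 ± 0.19, did not pass (adjusted p = 0.807 and 0.893).

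Inos encodes inositol-3-phosphate synthase, which makes the inositol for phosphatidylinositol and for inositol phosphates. It had the highest mean of the group. The ratios were 0.19, 0.62, 0.33, 1.11, 0.84, 0.84 and 0.65 on arrays 1 to 7. All were above 0 and the lowest were those of arrays 1 and 3. The mean was 0.65 ± 0.32 (SD, n = 7; 95% interval 0.42 to 0.89; adjusted p = 0.00676), and it was 0.45 with the mutant in Cy5 and 0.80 with it in Cy3. Inos was called without any single array (adjusted p from 0.00399 to 0.026). A further clone, GH10714, is assigned to both Inos and CG3842, and so is no feature of Inos alone. It had a mean of 0.76 ± 0.30 with every array above 0, from 0.48 to 1.31 (adjusted p = 0.00237).

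Of the storage genes, the perilipin gene Lsd-1 was lower in the mutant and the lipase gene bmm did not pass. Lsd-1 had ratios of 0.04, -0.52, -0.27, -0.87, -0.62, -0.65 and -0.23 on arrays 1 to 7. It was below 0 on 6 of 7 arrays, and array 1 was at no change. The mean was -0.45 ± 0.31 (SD, n = 7; 95% interval -0.67 to -0.22; adjusted p = 0.0314). The call was a narrow one: it held in 1 of the 7 fits that each left out an array, the one without array 1, and was lost without array 2, 3, 4, 5, 6 or 7, with an adjusted p of up to 0.101 and means from -0.53 to -0.38.

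The lipase gene bmm, the fly counterpart of adipose triglyceride lipase, had ratios of -0.06, 0.06, 0.23, 0.27, -0.26, 0.14 and 0.22. They lay on both sides of 0, with a mean of 0.08 ± 0.19 (SD, n = 7; 95% interval -0.08 to 0.25; adjusted p = 0.582). Lsd-1 was below bmm on 6 of 7 arrays, by 0.53 ± 0.38 on average.

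A further clone, LP07312, is assigned to both Lsd-1 and Tm2, the muscle tropomyosin gene, and was not counted for Lsd-1. Its ratios were 0.69, 0.68, 1.05, 0.07, 0.40, -2.01 and -0.66, unlike those of GH10767, the Lsd-1 clone. On the clone of Tm2 alone, RE15528, they were 0.70, 0.79, 1.32, 0.34, 0.82, -2.11 and -0.70. The clone shared by both genes thus had its lowest values on arrays 6 and 7 and its highest on array 3, as Tm2 did.

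The largest change of the group was that of Npc2a, the soluble lysosomal sterol-binding protein gene. Its ratios were 0.01, -1.21, -0.13, -1.49, -0.91, -1.44 and -0.82 on arrays 1 to 7. Arrays 1 and 3 were near no change, while the other 5 lay at -0.82 or below. The mean of -0.85 ± 0.60 (SD, n = 7; 95% interval -1.26 to -0.44; adjusted p = 0.024) lay below all but 0.284% of the features tested. It was lost without array 2, 4, 5 or 7 (adjusted p = 0.0869, 0.0841, 0.0715 and 0.0612), with means from -0.998 to -0.75 over the 7 fits. The mean was -0.52 with the mutant in Cy5, where array 6 differed widely from arrays 1 and 3, and -1.11 with it in Cy3.

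Npc1a, the membrane protein gene of the same route, did not pass. Its ratios were 0.15, -0.21, 0.14, 0.01, -0.22, 0.07 and -0.20, small on every array. The mean was -0.04 ± 0.17 (SD, n = 7; 95% interval -0.18 to 0.11; adjusted p = 0.827), which leaves out a change as large as that of Npc2a. Npc2a was below Npc1a on 7 of 7 arrays, by 0.82 ± 0.54 on average (SD). Of the relatives of Npc2a that were measured, Npc2b was at 0.27 ± 0.43, Npc2f at -0.10 ± 0.26 and the 3 clones of Npc2h at -0.18, -0.11 and -0.03, and none of these 5 features passed (adjusted p from 0.32 to 0.861).

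**Figure D2:**
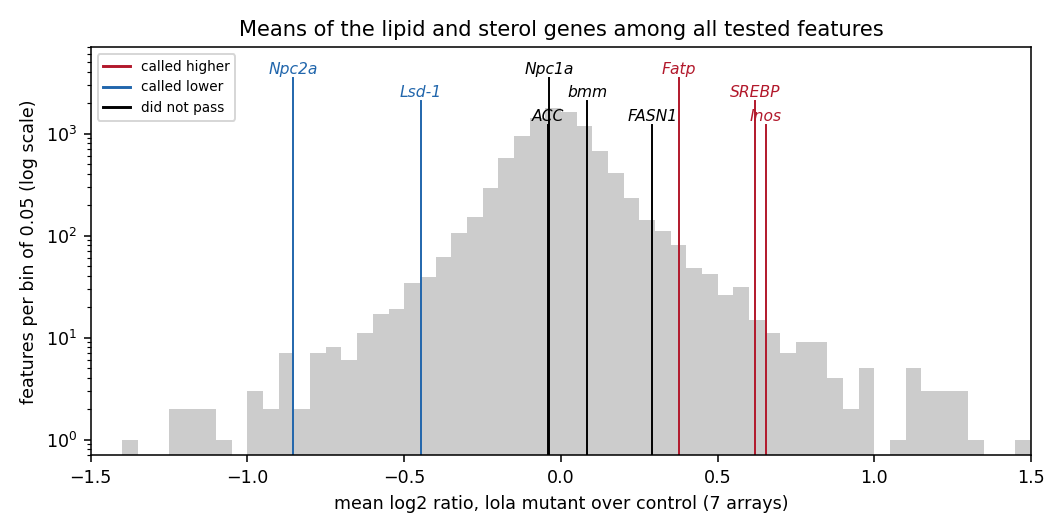
Number of features (vertical axis, log scale) in bins of 0.05 of the mean log2 ratio of lola mutant over control (horizontal axis, 7 arrays), for all tested features but the 20 beyond -1.5 or 1.5, with lines at the means of the 9 genes. Npc2a at -0.85 lies in the thin lower tail, SREBP at 0.62 and Inos at 0.65 in the upper one, and ACC, Npc1a and bmm near the middle.

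The size of the ratios varied from array to array. Over the 625 features called in the whole table, the median ratio in the direction of the mean was lowest on array 1, at 0.27. It was 0.35 on array 3, 0.36 on array 7, 0.39 on array 6 and 0.52 on array 4, the highest. Arrays 1 and 3 held the ratios of Npc2a nearest to 0 and the lowest of Inos. Npc2a was at -0.82 on array 7 and at -1.44 on array 6. SREBP was lowest on arrays 2 and 5 and Fatp on arrays 6 and 2. In a fit with a dye term, that term passed for 1180 of all features, 11.5%, and for 0 of the 9 genes in limma, with 2 of the 9, FASN1 and Npc1a, at an unadjusted p under 0.05, as for 26.5% of all features. The largest dye difference, Cy5 minus Cy3, was that of Npc2a at 0.59 (adjusted p = 0.303), followed by FASN1 at -0.38 (adjusted p = 0.0618) and Inos at -0.35 (adjusted p = 0.253). Without array 6, the dye term passed for Npc2a at 1.04 (adjusted p = 0.00448) and for Inos at -0.55 (adjusted p = 0.0264), and without array 4 for Npc1a at 0.32 (adjusted p = 0.0483). Dye and the pairs of embryos on those arrays cannot be told apart there.

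**Figure D3:**
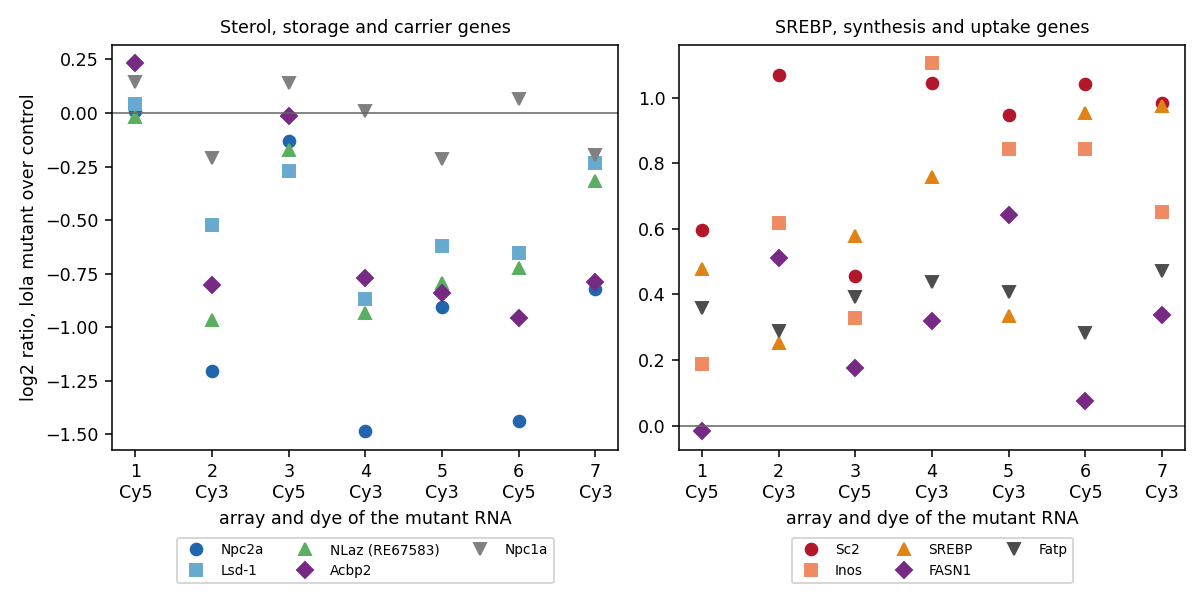
Log2 ratio of lola mutant over control (vertical axis) on arrays 1 to 7 (horizontal axis, with the dye of the mutant RNA) for Npc2a, Lsd-1, NLaz, Acbp2 and Npc1a on the left and Sc2, Inos, SREBP, FASN1 and Fatp on the right. Npc2a and NLaz are near 0 on arrays 1 and 3 and low on most others, Acbp2 is at 0.23 on array 1 and near 0 on array 3, while Fatp stays between 0.28 and 0.47.

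Beyond the 10 genes, 83 of 116 genes in 7 lists of lipid metabolism had a feature. Of these, 6 were higher and 1 was lower in the mutant, beside 3.49% higher and 2.54% lower of all genes tested, and the median of their 98 features was 0.01, against -0.01 for all features. The regulators that act with SREBP or beside it held 3 of the 6. S2P, the protease that makes the second cut of SREBP, was at 0.33 ± 0.15 (adjusted p = 0.0162), Mondo, the sugar-sensing factor, at 0.35 ± 0.09 (adjusted p = 0.00468) and sug, a zinc-finger factor of the sugar response, at 0.40 ± 0.28 (SD, n = 7 each; adjusted p = 0.0375). All 3 were above 0 on 7 of 7 arrays. S2P lost its call without array 4 (adjusted p = 0.0613), and sug without array 2, 3, 4, 5 or 7 (adjusted p up to 0.127), while Mondo kept its own (0.00596 to 0.024). The 4 others of the 7 measured did not pass, among them SCAP, the escort of SREBP, at 0.11 ± 0.23, and bigmax, the partner of Mondo, at -0.13 ± 0.22.

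Among 13 genes for synthesis, activation, elongation and desaturation of fatty acids, 1 was called. Sc2, the enoyl-CoA reductase gene of very long chain fatty acid elongation, had ratios of 0.60, 1.07, 0.46, 1.05, 0.95, 1.04 and 0.98 on arrays 1 to 7, well above 0 throughout. Its mean of 0.88 ± 0.25 (SD, n = 7; adjusted p = 0.000976), or 1.84-fold, was the largest of the 7 lists and exceeded that of each of the 9 genes. Sc2 kept its call without any single array (adjusted p from 0.000572 to 0.00563). ATPCL, which makes the acetyl-CoA for fatty acid synthesis, was at 0.18 ± 0.12 (adjusted p = 0.0958), hll, an acyl-CoA synthetase, at 0.28 ± 0.23 (adjusted p = 0.0775) and the 3 clones of the desaturase gene Desat1 at -0.05, 0.00 and -0.04, and none of them passed. In all, 7 of the 16 features of this list had an unadjusted p under 0.05, as did 2018 of all 10227 features, 19.7%. No test compared the list with other features.

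Of the 16 genes for glycerolipids and phospholipids, Pcyt1, which encodes the enzyme that makes CDP-choline for phosphatidylcholine, was higher at 0.31 ± 0.08 (SD, n = 7; adjusted p = 0.00784), and 15 did not pass. Among 8 genes of lipid droplets, lipases and adipokinetic hormone, the lipase gene Lip4 was higher at 0.32 ± 0.13 (adjusted p = 0.0136) and 7 did not pass, with the droplet gene Jabba at 0.03 and Seipin at 0.04. Both calls remained without any single array.

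Carriers of lipids in the haemolymph and in the cell had a median of -0.07 over 22 features, against -0.01 over all features. Of the 22, 16 were below 0, beside 5520 of all 10227 features. Among the 18 genes 1, NLaz, was lower. This lipocalin gene was at -0.56 ± 0.39 on clone RE67583 (SD, n = 7; adjusted p = 0.0262) and at -0.18 ± 0.23 on LP01657, which did not pass (adjusted p = 0.254). RE67583 had ratios of -0.02, -0.97, -0.17, -0.94, -0.79, -0.72 and -0.32, so that arrays 1 and 3 were nearest to no change, as for Npc2a. The call was lost without array 2, 4 or 5 (adjusted p up to 0.0929). The acyl-CoA binding protein gene Acbp2, picked after its values were seen, had a similar mean of -0.56 ± 0.47 and did not pass (adjusted p = 0.0534). The lipophorin gene apolpp was at -0.08 and -0.07 on its clones, and the list mean fell to -0.47 on array 6, against -0.18 to 0.13 on the others.

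No gene was called among 8 of sterol transfer and isoprenoid synthesis, where 1 of 11 features had an unadjusted p under 0.05 (limma). Nor was any among 13 of inositol and phosphoinositide metabolism, with 1 of 17 features. Of all features, 19.7% had such a p. The features of the inositol and phosphoinositide list, mostly kinases, phosphatases and phospholipases, ran from -0.14 to 0.18. Fpps, a farnesyl diphosphate synthase gene, was at 0.23 and 0.11 on its clones and Hmgs, which makes HMG-CoA, at 0.18 ± 0.48.

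**Figure D4:**
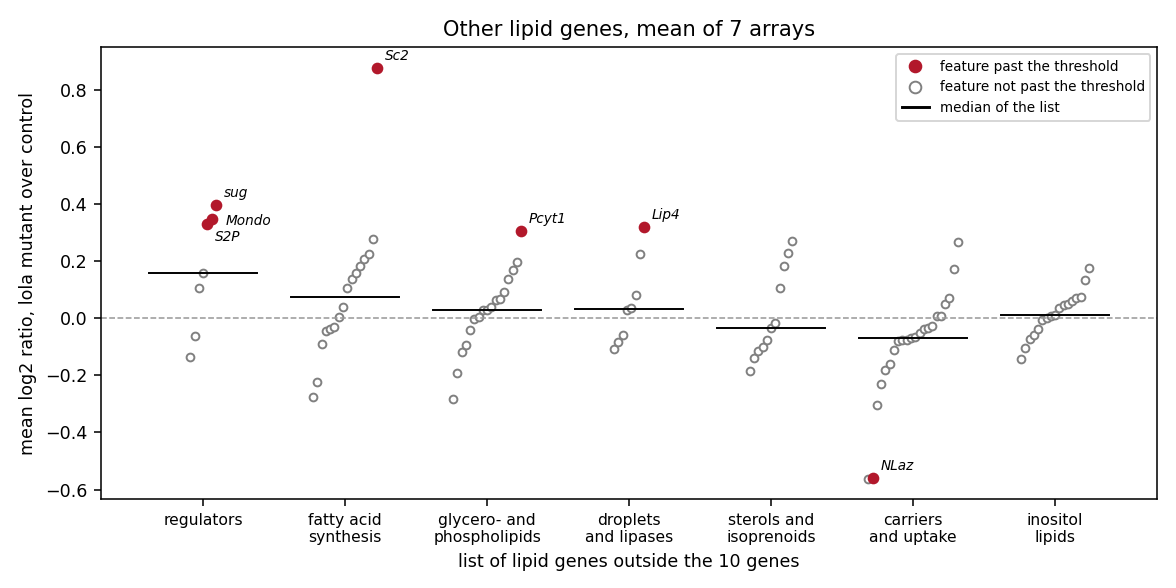
Mean log2 ratio of lola mutant over control over 7 arrays (vertical axis) of each feature in the 7 lists of other lipid genes (horizontal axis), filled where the feature passed and open where it did not, with a bar at the list's median. Sc2 at 0.88 lies above all others, and NLaz at -0.56 is the filled point below 0.

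Tissue markers were set beside these values because the RNA came from whole embryos. A table of ratios holds no level of a gene, so whether a marker was present at this stage could not be checked. A list with no called gene is therefore not read as a tissue that did not change. Of 7 measured fat body markers 0 passed in limma, with 0 of 9 features at an unadjusted p under 0.05, and the list mean ran from -0.12 to 0.08 on the 7 arrays. The oenocyte list, which shares FASN3, Desat1 and spidey with the lists above, also had 0 of 4 genes called (0 of 6 features at an unadjusted p under 0.05), at -0.34 on array 6 and up to 0.16 elsewhere. With the list of carriers, the fat body list shares apolpp and the haemocyte list shares crq. Of 7 midgut genes, lambdaTry was lower at -0.36 ± 0.26 (adjusted p = 0.0429), a call lost without array 2, 4, 5, 6 or 7 (adjusted p up to 0.129), and the list was highest on array 1 at 0.24. Of 5 haemocyte genes 3 were higher, Pxn at 0.53 on GH18946, PPO1 at 0.40 and PPO2 at 0.26. The other Pxn clone, SD07234, was at 0.18 and did not pass in limma (adjusted p = 0.215). Of 5 glial genes, Gs2 at -0.57 and alrm at -0.37 were lower. The others, repo at 0.06, moody at 0.04 and nrv2 at 0.02, lay slightly above 0 and did not pass. These counts stand beside 3.49% higher and 2.54% lower of all genes. PPO2 lost its call without array 2, 3, 4 or 5 and alrm without array 2, 4, 5 or 7 (adjusted p up to 0.0913 and 0.0964). The 4 muscle genes stood at -1.87 on array 6 and -0.63 on array 7, against 0.23 to 0.89 on the others. None of 4 muscle or 2 neuronal genes was called in limma, with 0 of 8 and 1 of 2 features at an unadjusted p under 0.05. Of all features, 19.7% had an unadjusted p under 0.05. The part of these markers in the ratios of the lipid genes was not tested. Without array 6, SREBP, Fatp, Inos and Npc2a remained called (Npc2a at an adjusted p of 0.0423) and Lsd-1 did not (adjusted p = 0.055). Without array 7, SREBP, Fatp and Inos remained called, while Npc2a and Lsd-1 did not (adjusted p = 0.0612 and 0.0513).

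By chromosome, 6 of the 9 genes lie on the second, which carries lola, and 3 on the third (RefSeq). Of these, 3 of 6 and 2 of 3 were called, beside 6.39% of features on the second chromosome and 5.37% on the third. None lies on the X, where 4.52% of features were called. Nothing is read from these shares either, as the genes were chosen with this contrast known.

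Other genes had much the same order over the 7 arrays as each called gene. The closest by Pearson's correlation over 7 arrays, among 8579 features of single genes, were dup and CG8617 for SREBP (0.977 and 0.974), a pair of clones of eIF3e for Fatp (0.965 and 0.934), CG12134 and Tmem214 for Lsd-1 (0.986 and 0.981), CG32407 and wtrw for Npc2a (0.996 and 0.990) and CG9550 and CG11291 for Inos (0.987 and 0.981). All points share the same arrays, and with so many features some are alike by their number alone. Of these 10 features, CG32407 was itself called, at -0.43 ± 0.26 (SD, n = 7; adjusted p = 0.0204).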

How the data were processed

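Spots were read by the authors in GenePix without correction for background, and limma was used for print-tip loess within each array and scaling between arrays; the sources used here do not name its version. The deposited values are log2 ratios, 1 column to each of 7 arrays, 10376 features with 0 missing values, and intensities were not used here. Signs were reversed to read mutant over control: 581 of 581 matched clones in the study's list had the opposite sign, and 62 of 70 features with a mean absolute ratio over 1 had the same sign in both dye orientations.

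Here, 149 control spots were left out. The mean ratio of each of 10227 features was tested with limma 3.58.1 (R 4.3.3; lmFit, then eBayes, defaults), with Benjamini-Hochberg adjustment and a threshold of 0.05. These steps were tested on simulated data. The platform table gave 8598 features a single gene, and RefSeq current symbols for 8588 of them. Of the clones that the study assigned to repeats or to several sequences, 52 were left out of gene counts and lists. Genes named are the 10, every listed gene that passed and the 2 features most like each called gene, beside relatives and close partners of these that did not pass, which were picked after their values were seen. The genes and lists were chosen with earlier results of these data known. The authors' fold changes and p-values in their list were used for signs only. Precision is limited by there being 7 arrays. Alternatives were each array left out, a dye term, quantile normalisation, median centring, array weights, a minimum fold of 1.1, robust empirical Bayes, averaged clones, an exact sign-flip test and each dye orientation alone.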

Additional observations from a re-analysis of the deposited data

Results flagged for a closer look

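Among the 22 features of the 9 genes and of the listed genes that passed, 1 had an array far from the other 6: PPO2, a prophenoloxidase gene of haemocytes, was at 0.024 on array 7, its lowest. By chance about 1 group in 20 is set apart in this way, and none of the 9 lipid genes was.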

How the results depend on the processing

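Each ratio is the difference within 1 pair of mutant and control samples, so the test of their mean is itself paired and no further pairing was fitted. Of 117 values of the 9 genes under alternatives, 93 kept direction and side of the threshold, 15 no longer passed, 4 newly passed, all of FASN1, and 5 changed sign. Those 5 were ACC at 0.021 with array weights, at 0.079 on the Cy3 arrays alone and from -0.10 to 0.028 when single arrays were left out (above 0 without array 1 or 6), and Npc1a at 0.12 on the Cy5 arrays alone; neither gene passed in any setting. The features called numbered 625 in all, from 246 (without array 2) to 775 when single arrays were left out, 277 without array 4, 288 without array 5, 2057 with array weights, 184 with a minimum fold of 1.1 and 2501 on the Cy3 arrays alone. Of the 9 genes, 5 were called, from 3 to 6 when single arrays were left out, 3 with a minimum fold of 1.1 and 3 without array 2, 4, 5 or 7. SREBP, Fatp and Inos were the 3 each time. They passed in every alternative but the Cy5 arrays alone, where 0 of 10227 features passed in limma and 1751 had an unadjusted p under 0.05. Of the other lipid genes 7 were called, from 4 (without array 4) to 9 when single arrays were left out, an alternative chosen after seeing the data. The dye term passed for 0 of the 9 genes, and for up to 2 when single arrays were left out. By the exact two-sided sign-flip permutation test over 7 arrays, 6 of the 9 genes had an unadjusted p under 0.05, as did 18.3% of all features, with 0.0156 the smallest it can give. Probes were not screened for dim signal, as intensities were not used, so what low signal does to these ratios was not tested.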
